A study of Mus musculus with 15 samples.

Results

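Transcript abundance was compared between lymphatic endothelial cells (LECs) that had received 100 ng/mL of VEGF-C for 72 h and LECs left unstimulated for the same time, with 5 libraries in each group. These 10 libraries were taken by their labels from the 15 of the series. The other 5, from cells given 10 ng/mL, entered the statistical fit so that all groups shared an estimate of the spread. All cells were Pdpn+ CD31+ CD45- cells from female C57Bl/6 mice, taken from pooled popliteal, inguinal, cervical, brachial and axillary lymph nodes. They were grown in MEMα medium with 10% serum, penicillin and streptomycin. The growth factor was purified mouse VEGF-C made in HEK-293E cells, a human embryonic kidney line used to produce proteins. Of the 45706 genes in the deposited table, 17650 had enough counts to be tested. Whether libraries A to E were separate cultures is not stated in the labels. The spread behind each p-value is therefore that between libraries and may be technical.

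VEGF-C is a secreted ligand of the receptor tyrosine kinases Flt4 (VEGFR-3) and Kdr (VEGFR-2). These receptors are known to act through the ERK and AKT kinases and through calcium release, and in lymphatic endothelium VEGF-C is known for driving sprouting, migration and survival. Endothelial sprouts also carry guidance receptors of the kind that steer axons, use Notch signals between neighbours, and sense flow through ion channels and the transcription factors of the Klf family.

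The labelled cell type was checked against 12 LEC markers. The summed abundance of these markers, in CPM (each gene's counts scaled to a fixed library total, with TMM factors), was 5013 to 5876 in the unstimulated libraries and 7375 to 10774 at 100 ng/mL. Most of the unstimulated sum came from Cdh5 (2025 to 2266 CPM) and Pecam1 (1441 to 1697 CPM). Both are genes of endothelium in general, so the sum does not separate lymphatic from blood endothelium. Prox1, Flt4, Lyve1, Pdpn, Pecam1 and Cdh5 were detected in every library, whereas Ccl21a and Mmrn1 were at or near 0 and were not tested. Markers of cells other than endothelium were present at lower levels and differed between the groups. The sum of 18 fibroblastic and reticular stromal markers was 1226 to 3382 CPM in unstimulated cells and 151 to 572 CPM at 100 ng/mL, with 12 of the 13 tested lower and Ccl19 at 0 in every library. The sum of 14 mural and smooth muscle markers was 845 to 1461 CPM and 187 to 479.7 CPM, with 8 of 13 lower. Mcam alone took 199 to 322 CPM and then 90.6 to 377 CPM of this sum. The sum of 18 leukocyte markers was 62.1 to 176 CPM and 27.8 to 51.1 CPM, with 12 of 14 lower and Ms4a1 at 0. The 12 epithelial markers summed to 85.04 to 137 CPM and 31.8 to 61.8 CPM, with 1 of the 8 tested higher, 5 lower and Epcam near 0. Krt18 held most of the unstimulated sum, at 59.05 to 112 CPM, and measured 8.57 to 31.3 CPM at 100 ng/mL. Krt5 was the gene called higher, at 10.6 to 12.4 CPM and then 19.2 to 24.2 CPM. The 21 blood endothelial markers summed to 5115 to 6292 CPM and 5379 to 5840 CPM, with 9 higher and 7 lower. In bulk samples fewer cells of a type and less RNA per cell cannot be told apart, and the part that stromal, mural or leukocyte cells took in the falls described here was not tested.

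Between 27784906 and 37132309 estimated counts were assigned to genes per library. By edgeR's quasi-likelihood test with Benjamini-Hochberg adjustment at 0.05, which gives every adjusted p here, 3766 genes were higher and 3789 lower at 100 ng/mL, or 21.3 and 21.5% of the genes tested. Of these, 710 were higher and 1458 lower by at least 2-fold, and the median log2 fold change of all genes tested was 0.008. A total of 91 lists of receptor, pathway, channel, transcription factor, metabolic, immune, matrix and marker genes held 3154 of the genes tested. Each list is described by its called members beside those background shares. Genes with values per library were mostly chosen for a small p. Where their groups did not overlap, that is a description and adds no support. Library B of the 100 ng/mL group differed less from the unstimulated libraries than the other 4, and values without it are given where they change a result.

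**Figure D1:**
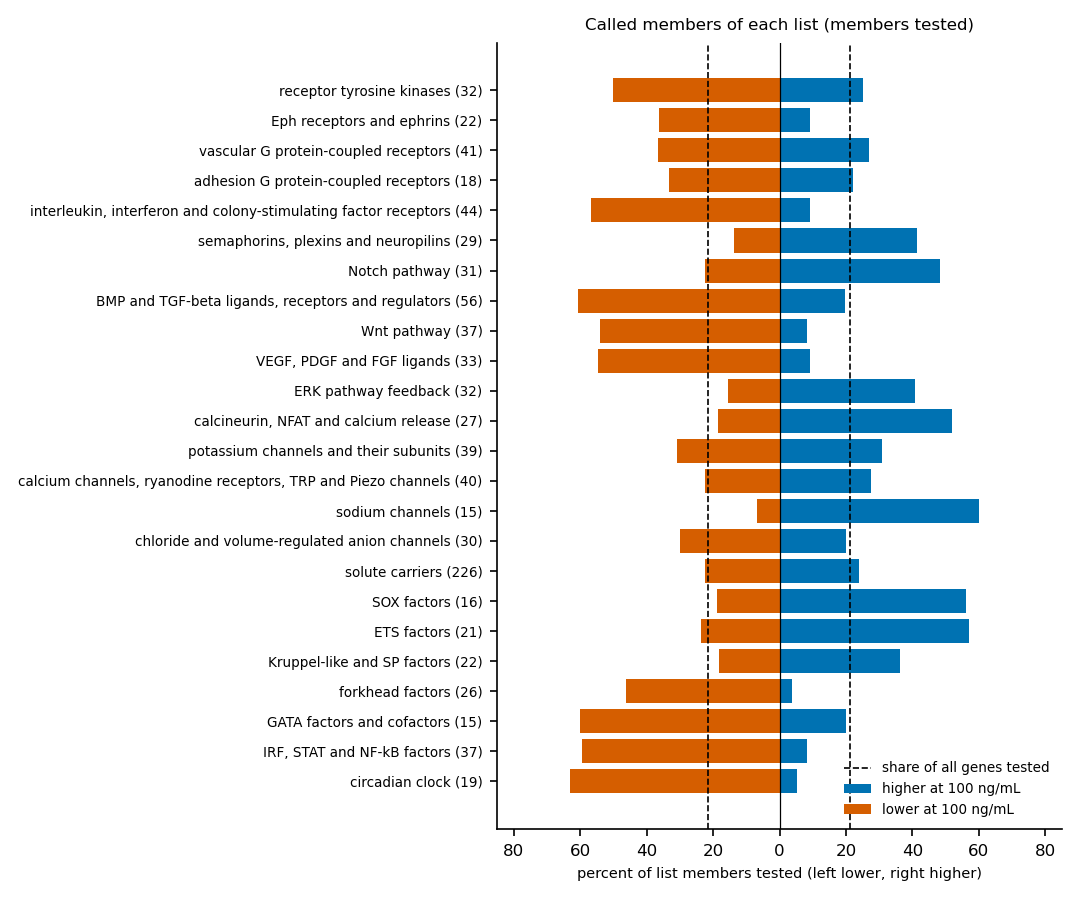
Percent of the tested members of 24 gene lists that were called lower (bars to the left) or higher (bars to the right) at 100 ng/mL against unstimulated, with the number tested in brackets and the shares of all genes tested (21.5 and 21.3%) as dashed lines. The semaphorin, Notch, ERK feedback, calcineurin, sodium channel, SOX and ETS lists reached over 40% higher, and the BMP and TGF-beta, interleukin receptor, Wnt, ligand, GATA, IRF and clock lists over 50% lower.

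Guidance receptors and their ligands moved in both directions. Of 29 semaphorins, plexins and neuropilins tested, 12 rose and 4 fell (median log2 fold change 0.17). Plxnd1 (ENSMUSG00000030123, chr6:115954811-115995005 on GRCm38), the receptor of Sema3e in vascular cells, was the fourth largest gain of all genes in CPM. Unstimulated libraries A to E measured 807, 772, 789, 788 and 619 CPM, and the 100 ng/mL libraries A to E 2703, 2097, 1807, 2511 and 2329.8 CPM. The groups did not overlap, and the log2 fold change was 1.60 ± 0.11 (SE, adjusted p = 5.06e-08). Sema3e itself measured 85.2, 100, 85.8, 115 and 103 CPM in unstimulated libraries and 32.1, 74.6, 27.1, 29.7 and 24.9 CPM at 100 ng/mL (-1.38 ± 0.24, adjusted p = 0.000373), so the ligand gene fell while its receptor gene rose. Library B, at the upper end, lay nearest the unstimulated range for Sema3e. The transmembrane semaphorin genes Sema6d and Sema4c rose, Sema6d from 12.5, 10.21, 17.1, 12.2 and 10.97 CPM to 126, 76.2, 58.4, 101.2 and 92.7 CPM (2.85 ± 0.19, adjusted p = 5.72e-08). Sema4c measured 32.4, 30.9, 31.3, 27.3 and 34.2 CPM and then 205, 139, 113, 219.5 and 179.5 CPM (2.46 ± 0.17, adjusted p = 8.13e-08), again with no overlap. The secreted class 3 members Sema3a (2.15), Sema3f (0.99) and Sema3g (3.86, from a level under 1 CPM) rose too. The class B plexins diverged. Plxnb2, a receptor of class 4 semaphorins, fell from 566, 532, 575, 573 and 544 CPM to 214, 265, 235, 204 and 218 CPM (-1.30 ± 0.07, adjusted p = 1.39e-08), whereas its relative Plxnb1 rose by 1.88 on the log2 scale. Per length, in the authors' RPKM averaged over 5 libraries, Plxnd1 measured 56.3 and 166 in unstimulated and 100 ng/mL cells, Plxnb2 42.0 and 16.7, and Plxnb1 0.524 and 1.88.

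Netrin and Slit genes went both ways. Of 16 genes of the Slit, Robo, netrin and Unc5 families, 5 rose and 4 fell. Those are 31.2 and 25%, not far from the 21.3 and 21.5% of all genes tested. The rises numbered 8 without unstimulated library E, and the falls 2 without 100 ng/mL library A or D or unstimulated library C or E. Unc5b (ENSMUSG00000020099, chr10:60762593-60831581), a netrin receptor of tip cells, measured 229, 172, 217, 139 and 206 CPM in unstimulated libraries A to E and 961, 500.2, 1224, 1177 and 1239.9 CPM at 100 ng/mL (2.40 ± 0.23, adjusted p = 1.1e-06). Neo1, which encodes the netrin and repulsive guidance molecule receptor neogenin, measured 95.8, 59.1, 60.3, 57.8 and 34.9 CPM and then 316, 115, 1009.9, 386 and 503 CPM (2.92 ± 0.44, adjusted p = 8.85e-05). For both genes library B was the lowest of its group but above every unstimulated library. Among the ligands, Ntn1 rose from 2.51, 1.43, 3.13, 3.37 and 2.98 CPM to 38.2, 13.4, 28.8, 28.5 and 33.7 CPM (3.41 ± 0.31, adjusted p = 6.83e-07), and Ntn4, a basement membrane netrin, fell by 0.87 ± 0.17. Slit2, a ligand of Robo receptors, fell from 92.1, 149, 147, 116 and 206 CPM to 16.5, 65.7, 15.6, 15.9 and 17.1 CPM (-2.44 ± 0.40, adjusted p = 0.000174, and -3.13 without library B). Libraries A, C, D and E lay together under 20 CPM, and library B lay between them and the unstimulated group. The endothelial receptor gene Robo4 rose by 0.36 ± 0.11 (adjusted p = 0.0128).

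Eph receptors and ephrins are membrane-bound guidance partners. Of 22 tested, 2 rose and 8 fell (median -0.37). Ephb1 (ENSMUSG00000032537) was the larger rise, from 3.33, 3.07, 2.88, 3.31 and 2.38 CPM to 43.9, 8.11, 62.0, 32.5 and 57.1 CPM (3.76 ± 0.40, adjusted p = 3.85e-06), and its library B stood at 8.11 CPM, far under the other 4 and above all unstimulated libraries. Efna1 also rose (0.75). Efnb2, the ephrin of arterial endothelium and of lymphatic valves, fell from 238, 244, 237, 289.9 and 257 CPM to 121, 144, 111, 117 and 99.7 CPM (-1.09 ± 0.09, adjusted p = 2.44e-07), with no overlap. Epha4 fell (-2.59, and -3.27 without library B). Ephb4, the receptor of Efnb2, did not pass (0.29 ± 0.13, adjusted p = 0.0951) and passed without library B (0.42, adjusted p = 0.000649).

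**Figure D2:**
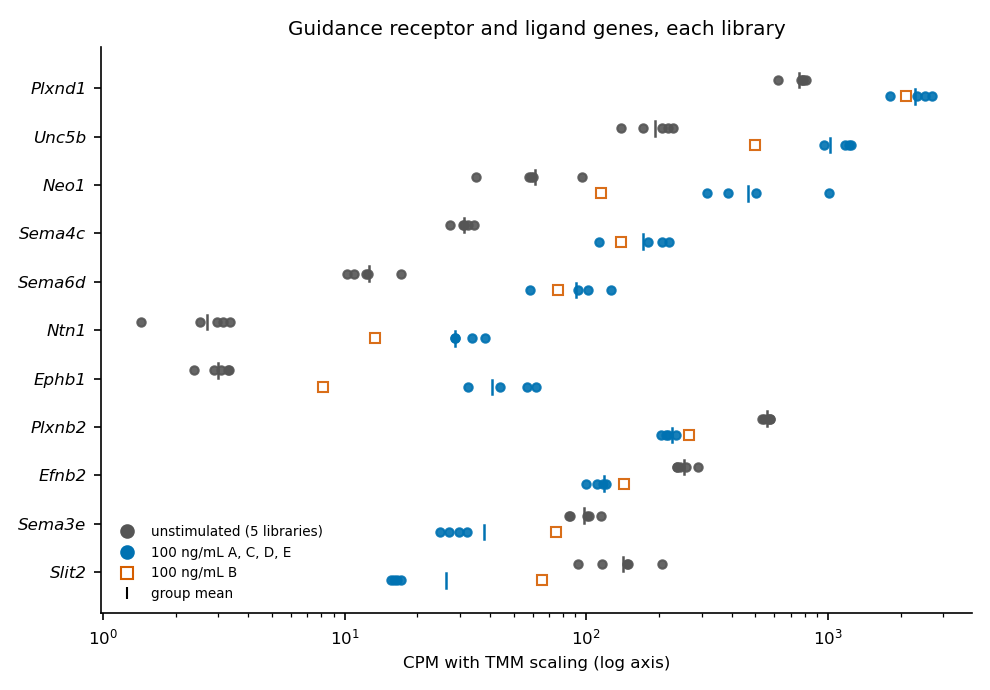
CPM (log axis) of 11 guidance receptor and ligand genes in the 5 unstimulated libraries (grey) and in 100 ng/mL libraries A, C, D and E (blue) and B (open orange squares), with group means as vertical lines. Plxnd1, Unc5b, Neo1, Sema4c, Sema6d, Ntn1 and Ephb1 lie to the right at 100 ng/mL, and Plxnb2, Efnb2, Sema3e and Slit2 to the left. Library B of Ephb1 stands at 8.11 CPM and of Slit2 at 65.7 CPM.

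Among 32 receptor tyrosine kinases 8 rose and 16 fell (median -0.31). Beside the VEGF receptors, those that rose were the angiopoietin receptor gene Tek (0.52), its partner Tie1 (0.88), the insulin receptor gene Insr (0.51) and the fibroblast growth factor receptor genes Fgfr1 (0.99), Fgfr3 (0.39) and Fgfr4 (0.87). Fgfr2 fell (-1.80). The epidermal growth factor receptor gene Egfr measured 21.4, 20.7, 21.7, 15.3 and 24.2 CPM in unstimulated libraries and 2.74, 9.32, 2.49, 2.19 and 2.79 CPM at 100 ng/mL (-2.41 ± 0.33, adjusted p = 3.39e-05, and -3.01 without library B). Ddr1, a collagen receptor, fell from 24.6, 21.1, 28.2, 31.4 and 41.8 CPM to 7.63, 14.4, 9.17, 7.48 and 9.22 CPM (-1.62 ± 0.22, adjusted p = 2.94e-05). For both, library B was the highest of its group, and no libraries overlapped. The Gas6 receptor gene Axl (-1.83) and the hepatocyte growth factor receptor gene Met (-0.78) fell as well. So did the platelet-derived growth factor receptor genes Pdgfra (-2.19) and Pdgfrb (-1.81), which mark stromal and mural cells and fell together with the other markers of those cells.

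Growth factor ligand genes were mostly lower. Of 33 VEGF, PDGF, FGF and EGF family ligands tested, 3 rose and 18 fell, with a median log2 fold change of -1.28 against 0.008 for all genes. The platelet-derived growth factor gene Pdgfb measured 461, 403, 427, 324 and 241 CPM in unstimulated libraries and 78.7, 106, 52.8, 76.9 and 64.6 CPM at 100 ng/mL (-2.29 ± 0.23, adjusted p = 2.04e-06). Every library at 100 ng/mL lay under every unstimulated one. Pdgfa (-2.01) and Pdgfc (-3.16) fell with it. The ligand genes of the EGF receptor family Tgfa (-2.37), Hbegf (-1.89), Ereg (-2.39) and Nrg1 (-3.53) fell, by larger amounts without library B for the last 3 (-2.67, -3.30 and -4.43). Gas6, the ligand of Axl, fell from 886 ± 116 to 359 ± 84.1 CPM (-1.30 ± 0.15). Stem cell factor, encoded by Kitl, rose unevenly, from 8.22, 8.56, 14.1, 8.87 and 11.7 CPM to 58.4, 58.9, 8.75, 34.1 and 20.6 CPM (1.81 ± 0.39, adjusted p = 0.00163). Library C lay inside the unstimulated range, and library B was the highest.

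Genes of the adrenomedullin and endothelin systems also split between peptide and receptor. Adrenomedullin is a peptide known for its role in lymphatic growth and barrier function, and its receptor is formed by Calcrl with a Ramp partner. Adm, the peptide gene, measured 1006, 910.3, 868, 640.1 and 695 CPM in unstimulated libraries and 197, 399, 169, 207 and 162 CPM at 100 ng/mL (-1.86 ± 0.24, adjusted p = 2.44e-05). Calcrl (ENSMUSG00000059588, chr2:84330626-84425411) rose from 29.4, 35.0, 40.5, 32.7 and 32.7 CPM to 116, 75.1, 232, 116 and 178 CPM (2.07 ± 0.23, adjusted p = 5.51e-06). Ramp3 rose from 1.38, 1.58, 1.33, 1.21 and 2.47 CPM to 22.3, 10.6, 9.17, 23.8 and 16.2 CPM (3.36 ± 0.33, adjusted p = 1.61e-06), and Ramp2 rose by 1.02. None of these 3 comparisons with values per library had overlapping groups. Per length, Ramp2 remained above Ramp3, at 18.2 and 36.1 RPKM in unstimulated and 100 ng/mL cells against 0.671 and 6.71 RPKM. Of the 19 genes of angiopoietin, Tie and adrenomedullin signalling 7 rose and 4 fell.

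Endothelin-1 is a vasoconstrictor peptide of endothelial cells. Its gene Edn1 (ENSMUSG00000021367, chr13:42301476-42307990) measured 1009, 939, 950.5, 956 and 745 CPM in unstimulated libraries A to E and 49.1, 119, 64.3, 34.4 and 40.3 CPM at 100 ng/mL (-3.90 ± 0.30, adjusted p = 1.7e-07). Library B was again the highest of its group and lay far under the lowest unstimulated library. The mean at 10 ng/mL was 1012 ± 183 CPM (SD, n = 5), and the 100 ng/mL group was lower than that group (log2 difference -4.04 ± 0.30, adjusted p = 1.55e-07). At lower levels, Edn2 fell by 3.76 ± 0.28 and Edn3 fell by 2.72 ± 0.17, whereas the endothelin receptor gene Ednrb rose (6.04). Of 30 endothelin, nitric oxide and prostanoid genes 5 rose and 14 fell.

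**Figure D3:**
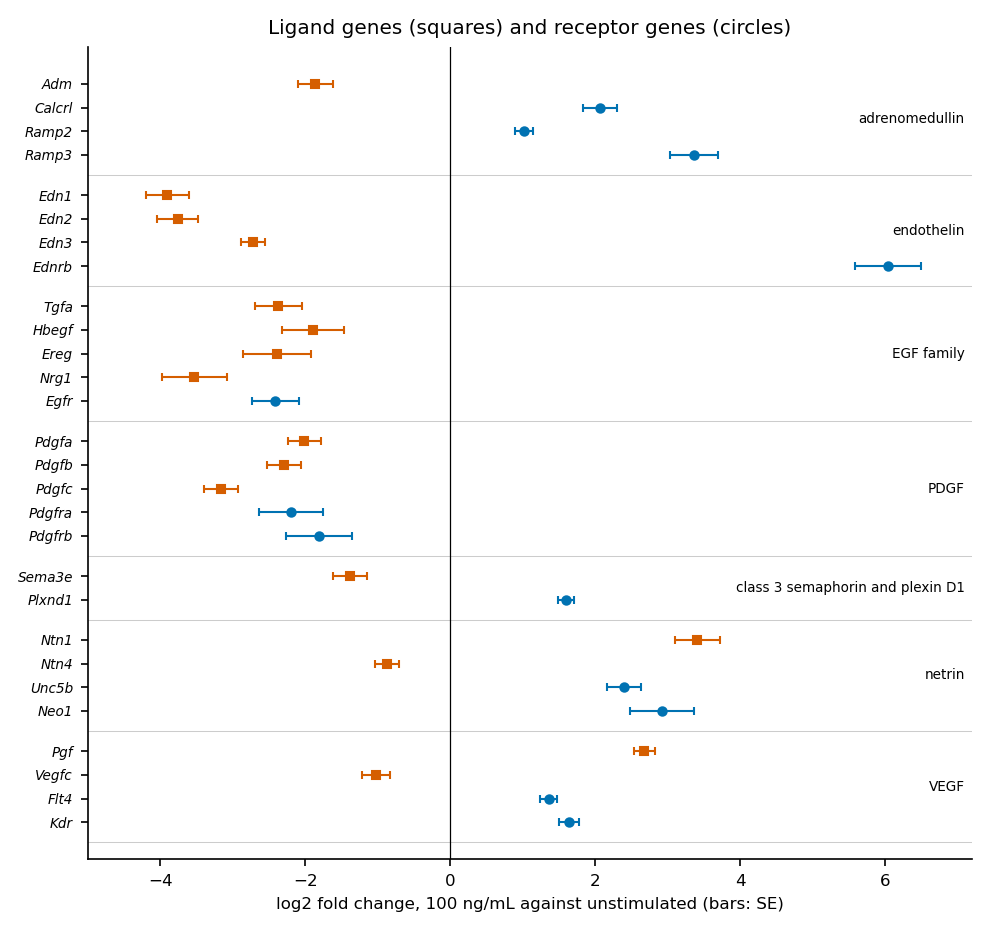
Log2 fold change at 100 ng/mL against unstimulated, with its SE, for ligand genes (squares) and receptor genes (circles) of 7 families. In the adrenomedullin and endothelin families, and for Sema3e with Plxnd1, the ligand genes shown are lower and the receptor genes higher. Sema3e alone is shown of its class, and Sema3a (2.15), Sema3f (0.99) and Sema3g (3.86), not shown, rose. In the EGF and PDGF families both are lower, and in the netrin and VEGF families the ligand genes go both ways.

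G protein-coupled receptors of vascular mediators numbered 41 tested, 11 higher and 15 lower (median -0.39). The sphingosine 1-phosphate receptors diverged. S1pr1, which is known to keep endothelial junctions and quiescence, rose from 652 ± 17.8 to 986 ± 106 CPM (0.60 ± 0.07, adjusted p = 9.28e-06), while S1pr2 (-1.11) and S1pr3 (-2.15) fell. In RPKM, S1pr1 stood far above both, at 115 and 169.8 in unstimulated and 100 ng/mL cells against 5.42 and 2.44 for S1pr2 and 1.81 and 0.394 for S1pr3. The thrombin receptor genes F2rl3 (1.95) and F2r (-0.39) moved in opposite directions. The serotonin receptor gene Htr2a rose (1.75). Aplnr, the apelin receptor gene, rose by 4.96 ± 0.60 from libraries at or near 0 to 0.949 to 3.64 CPM. Ptger4, a prostaglandin E2 receptor, fell from 27.2, 27.9, 30.0, 25.2 and 32.7 CPM to 5.33, 15.03, 4.59, 6.68 and 4.13 CPM (-2.0 ± 0.28, adjusted p = 3.82e-05).

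Of 18 adhesion G protein-coupled receptors 4 rose and 6 fell, or 22.2 and 33.3% against 21.3 and 21.5% of all genes tested. Adgrg3 (ENSMUSG00000060470, chr8:95017692-95045250), also known as Gpr97, measured 41.9, 42.6, 42.5, 47.4 and 40.6 CPM in unstimulated libraries and 379.9, 214, 352, 376 and 368 CPM at 100 ng/mL (2.97 ± 0.14, adjusted p = 9.35e-09). Adgrl4, an endothelial member also called Eltd1, measured 95.0, 108, 97.3, 148 and 65.3 CPM and then 504, 246, 412, 312 and 381 CPM (1.85 ± 0.23, adjusted p = 1.38e-05). Neither gene had overlapping groups, and library B was the lowest at 100 ng/mL for both. Adgra2, the Wnt7 co-receptor of brain endothelium also called Gpr124, rose (0.67), and Adgra3 (-0.70) and Adgrl1 (-1.03) fell. Orphan receptors included the rises Gprc5c (1.77, 1.49, 2.64, 2.47 and 1.46 CPM, then 20.7, 8.01, 18.4, 13.4 and 20.2 CPM), Gprc5b (1.33), the proton sensor Gpr4 (1.30) and Gpr146 (0.85), and the falls Gpr176 (-1.56), Lgr4 (-0.95) and Lgr6 (-1.93). Of 41 orphan receptors tested 8 rose and 14 fell (19.5 and 34.1%), and the log2 fold change of Gprc5c was 3.04 ± 0.28 (adjusted p = 8.54e-07).

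Cytokine receptors fell more often than they rose. Of 44 interleukin, interferon and colony-stimulating factor receptors 4 rose (2 without 100 ng/mL library D or unstimulated C or D) and 25 fell (median -0.45). Il6st (ENSMUSG00000021756, chr13:112464070-112510086), which encodes gp130, the shared signal chain of the IL-6 family, was the fourth largest loss of all genes in CPM. Its unstimulated libraries measured 2063, 1888, 2373, 1926 and 1458 CPM and its 100 ng/mL libraries 457, 491, 779.9, 392 and 567 CPM (-1.85 ± 0.18, adjusted p = 1.63e-06). Library B lay among the other 4. Chains that pair with gp130 fell as well, namely Lifr (-2.09), Osmr (-2.03), Il6ra (-1.33), Il11ra1 (-1.0) and Il11ra2 (-1.01), and Stat3, the transcription factor of this pathway, fell by 0.49 ± 0.08. The growth hormone receptor gene Ghr fell (-1.36), as did Il13ra1 (-0.67) and Ifngr1 (-0.46). Il10rb, a chain of the IL-10 and interferon lambda receptors, rose (0.61). Among 23 toll-like receptors and nucleic acid sensors 1 rose (2 without 100 ng/mL library C) and 10 fell, Tlr2 (-1.37) and Nod1 (-0.78) among them.

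Notch genes were among those with most rises. Of 31 tested 15 rose and 7 fell (median 0.18). Notch4 (ENSMUSG00000015468, chr17:34564268-34588503), the endothelial Notch receptor, measured 28.6, 37.5, 27.7, 38.1 and 47.5 CPM in unstimulated libraries and 464, 318, 163, 399 and 294 CPM at 100 ng/mL (3.19 ± 0.31, adjusted p = 1.69e-06). Library C was the lowest of the 100 ng/mL group and lay above every unstimulated library. Notch1 (0.44) and Notch2 (1.07) rose by less. In RPKM, Notch4 measured 2.39 and 21.2 in unstimulated and 100 ng/mL cells and Notch1 9.79 and 12.96, so Notch4 moved from under to above Notch1. Among the ligands Dll1 (1.49) and Jag2 (2.35) rose and Jag1 fell (-0.75). The glycosyltransferase gene Mfng, which modifies Notch receptors, rose (1.12), and Rbpj, the DNA-binding partner of Notch, fell (-0.61).

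BMP and TGF-beta genes fell for the most part. Of 56 ligands, receptors and regulators 11 rose and 34 fell (median -0.69). The inhibitory Smad genes Smad6 (-2.14) and Smad7 (-1.53) and the ligand gene Bmp6 (-2.56) fell, whereas Smad1 (0.63) and Smad4 (0.31) rose. The activin receptor gene Acvr1b measured 124, 127, 142, 104 and 104 CPM in unstimulated libraries and 48.2, 50.1, 47.8, 50.1 and 52.3 CPM at 100 ng/mL (-1.27 ± 0.09, adjusted p = 1.08e-07). Its 100 ng/mL libraries, B included, lay within a few CPM of each other. Inhbb, which encodes the activin beta B subunit, rose from 31.4, 26.4, 40.4, 20.96 and 22.4 CPM to 118, 109.8, 61.6, 125 and 131 CPM (1.95 ± 0.23, adjusted p = 1.07e-05). The TGF-beta ligands diverged, Tgfb1 rising from 98.7 ± 15.2 to 295 ± 55.6 CPM (1.58 ± 0.14) and Tgfb2 falling (-1.49). Tgfbr2, their type II receptor, rose (0.49). Of the Id genes, which respond to BMP signals, Id1 (0.22 ± 0.19, adjusted p = 0.368) and Id3 (-0.01 ± 0.07, adjusted p = 0.933) did not pass and Id2 fell (-0.85). Id1 passed without unstimulated library E (adjusted p = 0.0269). Of 37 Wnt pathway genes 3 rose and 20 fell (median -0.51), including the secreted antagonist Sfrp1 (-2.73), the receptor Fzd8 (-0.80) and the co-receptor Lrp5 (-0.51), while Fzd4, an endothelial Wnt and norrin receptor, rose (0.34). Fibroblasts express several of these genes, and the stromal marker sum fell beside them.

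Genes downstream of receptor kinases were examined as lists of ERK feedback and calcium signalling, with some regulators of the cytoskeleton. Of 32 genes listed as ERK pathway feedback 13 rose and 5 fell. The list holds dual-specificity phosphatase, Sprouty and Spred genes and others such as Rasa1 and Sh2b3, which rose. It was drawn mainly by gene family, and not every phosphatase in it need act on ERK, so its counts do not measure ERK feedback. Dusp6, the phosphatase of ERK, measured 145, 146, 136, 144 and 153 CPM in unstimulated libraries and 252, 209.8, 286, 252 and 292 CPM at 100 ng/mL (0.84 ± 0.08, adjusted p = 2.12e-06), with no overlap. Spry4 (1.08) and Spred2 (0.56) rose, and Dusp4 (-0.71) and Dusp10 (-0.85) fell. Spry1 was also called lower, with a log2 difference of -0.52 in the 100 ng/mL libraries other than B and -0.30 in B. The ERK-responsive ETS factor genes Etv4 (1.12) and Etv5 (0.58) rose.

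Of 27 genes of calcineurin, NFAT and store-operated calcium entry 14 rose and 5 fell (median 0.24). The pore genes of store-operated entry Orai1 (0.46), Orai2 (0.72) and Orai3 (0.33) rose, while Stim1, the sensor that opens them, fell (-0.71). Nfatc1, a factor of lymphatic valve and vessel development, measured 98.8, 92.4, 91.5, 78.4 and 47.9 CPM in unstimulated libraries and 122, 63.8, 274, 143 and 195 CPM at 100 ng/mL (0.96 ± 0.30, adjusted p = 0.0181, and 0.0589 without 100 ng/mL library C). Library B lay inside the unstimulated range. Nfat5, the osmotic stress factor of the family, rose by 1.66 ± 0.19, and Nfatc4 fell (-1.02). Phosphodiesterases, which break down cyclic nucleotides, included Pde10a, at 20.02, 20.9, 20.5, 19.4 and 14.2 CPM and then 42.0, 29.1, 62.6, 43.9 and 53.7 CPM (1.28 ± 0.16, adjusted p = 1.83e-05), the endothelial Pde2a (1.40) and the fall of Pde4a (-0.96). Of the 28 phosphodiesterases and adenylyl cyclases 9 rose and 6 fell, or 32.1 and 21.4% against 21.3 and 21.5% of all genes tested.

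Arhgap18 (ENSMUSG00000039031, chr10:26753421-26918648), a GTPase-activating protein of endothelium, measured 51.7, 51.7, 46.6, 46.1 and 45.4 CPM in unstimulated libraries and 236, 191, 152, 179 and 186 CPM at 100 ng/mL (1.97 ± 0.10, adjusted p = 1.08e-08). The groups lay far apart, and library B was the second highest of its group. Rasip1, a Rap1 and Ras effector required for vessel lumens, rose from 70.5 ± 17.9 to 293 ± 60.8 CPM (2.06 ± 0.20). Plekhg1 (1.72) and Vav3 (1.91), both exchange factors, rose, and Arhgap28 (-1.59) and Arhgef18 (-0.92) fell. The contractile and YAP target genes went lower more often, 43 of 74 and 19 of 29, against 14 and 4 higher.

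Ion channels held some of the larger relative rises. Of 15 sodium channel genes tested 9 rose and 1 fell (2 without unstimulated library E), with a median of 0.68. Scn11a, a voltage-gated pore gene better known from sensory neurons, measured 1.45, 1.01, 0.899, 1.55 and 0.894 CPM in unstimulated libraries and 17.4, 4.61, 28.0, 15.5 and 22.6 CPM at 100 ng/mL (3.92 ± 0.41, adjusted p = 3.02e-06). Scn1a measured 20.4, 18.1, 16.8, 9.99 and 4.06 CPM and then 47.6, 24.3, 80.7, 48.2 and 60.8 CPM (1.92 ± 0.38, adjusted p = 0.000917). Library B was the lowest of its group for both, and for Scn1a it lay just above the highest unstimulated library. Scn3a (2.02), Scn8a (1.25), Scn9a (1.93) and the accessory subunit gene Scn3b (2.15) rose, and the leak channel gene Nalcn fell (-1.28). Scn3a had the highest level of these per length, at 6.66 and 26.4 RPKM in unstimulated and 100 ng/mL cells, against 0.668 and 2.46 for Scn1a, 0.328 and 1.22 for Scn9a and 0.107 and 1.58 for Scn11a. Sequence similarity between these pores is high, and the counting of reads that match several genes is not given in the sources used. Scn1a and Scn3a moved by similar amounts in each library, such as 1.01 and 1.13 in 100 ng/mL B and -1.55 and -1.72 in unstimulated E. Separate values of these pores, and the count of rises, are therefore uncertain.

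The mechanosensitive channel genes differed from each other. Piezo2 (ENSMUSG00000041482), a stretch-activated channel of touch neurons, measured 17.6, 10.39, 18.9, 14.1 and 13.4 CPM in unstimulated libraries and 227, 117, 215, 194 and 222 CPM at 100 ng/mL (3.71 ± 0.22, adjusted p = 1.9e-08). Piezo1, the flow sensor of lymphatic endothelium, averaged 605.6 CPM in both groups and did not pass (log2 fold change 0.0 ± 0.06, adjusted p = 1). Per length Piezo1 stayed above Piezo2, at 43.4 and 42.2 RPKM in unstimulated and 100 ng/mL cells against 0.549 and 7.0 RPKM. At 10 ng/mL Piezo2 measured 14.9 ± 3.14 CPM, and the 100 ng/mL group exceeded that by 3.71 ± 0.22 (adjusted p = 2.5e-08). Of 40 calcium, ryanodine, TRP and Piezo channel genes 11 rose and 9 fell. Those are 27.5 and 22.5%, near the 21.3 and 21.5% of all genes tested. Beside the ATP-sensitive channel genes, the potassium channel rises included Kcnq1 (4.78), the inward rectifiers Kcnj2 (2.75) and Kcnj15 (1.34) and Kcnh1 (2.48), with 12 of 39 higher and 12 lower.

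Chloride channel regulators of the Clca family went opposite ways. Clca2 (ENSMUSG00000036960, chr3:145070263-145099443) rose from 4.998, 4.87, 3.78, 3.31 and 5.01 CPM to 135, 76.3, 138, 137 and 139 CPM (4.83 ± 0.28, adjusted p = 1.91e-08). Library B stood at 76.3 CPM, and the other 4 lay within a few CPM of each other. The neighbouring and near-identical genes Clca3a1 (-2.30), Clca3a2 (-2.31) and Clca3b (-2.32) fell, and their separate values are uncertain because reads can match more than 1 of them. Clic5 (3.0) and Ttyh3 (0.58) rose and the chloride channel gene Cftr fell (-1.45). Of 30 genes of this list 6 rose and 9 fell, or 20 and 30% against 21.3 and 21.5% of all genes tested. The rises numbered 11 when unstimulated library E, library D of the 10 ng/mL group and library B were left out together.

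The gap junction genes Gja1 and Gja4, which encode connexin 43 and connexin 37 and which both act in lymphatic valves, moved apart. Gja4 measured 21.6, 15.2, 16.1, 15.6 and 4.58 CPM in unstimulated libraries and 2.40, 2.34, 3.60, 1.86 and 3.04 CPM at 100 ng/mL (-2.46 ± 0.40, adjusted p = 0.000192). Unstimulated library E was the lowest of its group and still exceeded every 100 ng/mL library. Gja1 rose from 169 ± 15.4 to 418 ± 23.4 CPM (1.31 ± 0.09, adjusted p = 7.47e-08). The water channel gene Aqp1 rose (1.59). Among pumps, the calcium pump gene Atp2b4 (1.85) and the sodium pump regulator Fxyd5 (1.30) rose, and of 38 pump genes 14 rose and 3 fell.

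**Figure D4:**
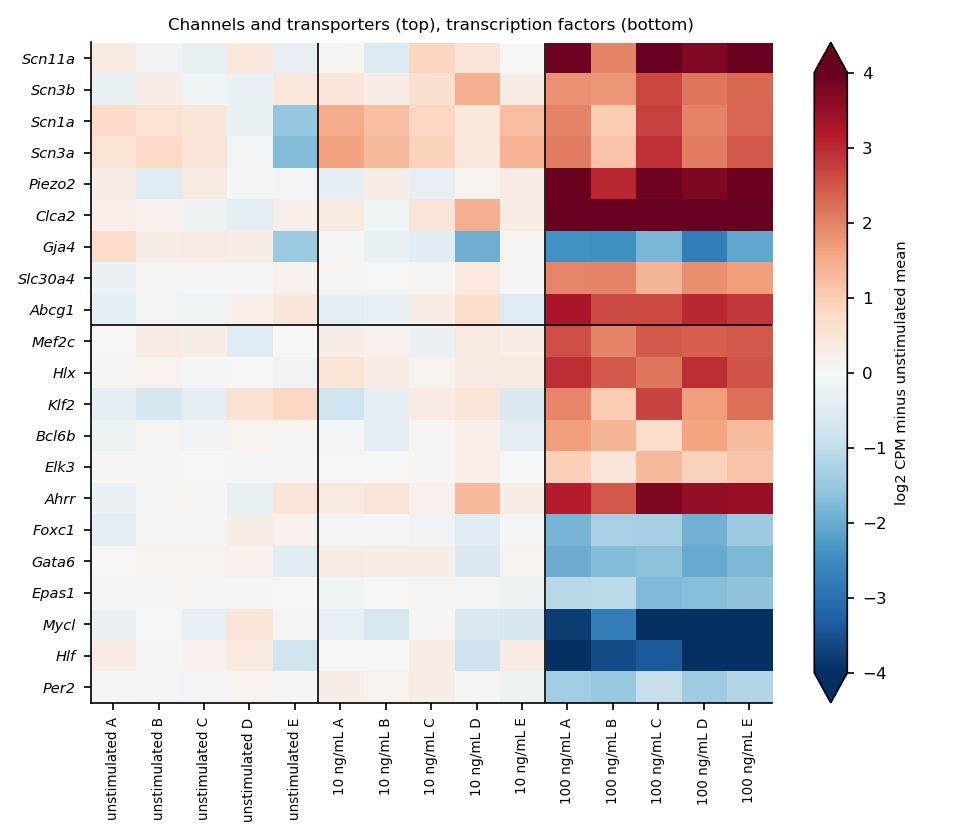
Log2 CPM minus the unstimulated mean in each of the 15 libraries for 9 channel and transporter genes (top) and 12 transcription factor genes (bottom), red for higher and blue for lower, with the colour scale ending at 4 in each direction. The 100 ng/mL columns are red or blue throughout, with a lighter shade in library B than in the other 4 for Scn11a, Scn1a, Klf2 and Mycl, and the 10 ng/mL columns are close to white in most rows.

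Solute carriers stayed near the background shares, with 54 of 226 higher and 51 lower (median -0.03). Slc30a4, a zinc exporter, measured 131, 166, 157, 146 and 172 CPM in unstimulated libraries and 599.5, 609, 397, 560.2 and 488 CPM at 100 ng/mL (1.78 ± 0.12, adjusted p = 4.66e-08). The inositol carrier gene Slc2a13 measured 3.31, 2.51, 3.78, 2.78 and 2.74 CPM and then 18.2, 11.3, 19.5, 18.1 and 20.5 CPM (2.53 ± 0.15, adjusted p = 1.96e-08). Neither had overlapping groups. The vesicular amine carrier gene Slc18a1 (4.65), the phosphate carrier gene Slc20a1 (1.58) and the zinc importer gene Slc39a10 (1.13) rose, and the glucose transporter gene Slc2a1 (-1.01) and the glucose 6-phosphate carrier gene Slc37a1 (-3.12) fell. Of 41 ABC transporters 15 rose and 9 fell. Abcg1, a sterol exporter, measured 10.8, 13.2, 12.6, 16.5 and 20.1 CPM and then 137, 90.02, 89.2, 115 and 102 CPM (2.87 ± 0.24, adjusted p = 3.36e-07). Abca1, its partner in cholesterol efflux, rose by 0.78 ± 0.20, within a list of 31 sterol efflux and fatty acid synthesis genes of which 7 rose and 11 fell. Another rise was that of Abcd2, a peroxisomal fatty acid importer (2.98 ± 0.17). Abcg2, a drug exporter, fell from 145, 176, 154, 235 and 164 CPM to 110.1, 112, 74.3, 79.1 and 75.9 CPM (-0.96 ± 0.16, adjusted p = 0.000252).

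Of 27 cholesterol synthesis and uptake genes tested 24 fell and 0 rose by edgeR, with a median of -0.96. None was higher at an unadjusted p under 0.05 or by DESeq2 or limma-voom. Msmo1, a demethylase of the later part of the pathway, measured 108, 116, 117, 119 and 100 CPM in unstimulated libraries and 26.8, 47.6, 25.9, 27.9 and 23.1 CPM at 100 ng/mL (-1.89 ± 0.16, adjusted p = 3.92e-07). Library B was the highest of its group, well under the lowest unstimulated library. Cyp51 (-1.93), Idi1 (-1.89), Sqle (-1.27), Hmgcs1 (-1.08), the sterol sensor gene Insig1 (-1.18) and the controlling factor gene Srebf2 (-0.55) all fell. The sterol response element TCACNCCAC, searched on both strands, was found in 1 of 19 promoters of the list (5.26%), that of Hmgcs1, against 1.44% of all 27025 promoters.

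Transcription factors of the SOX and ETS families were mostly higher, against 21.3% of all genes. Of 16 SOX genes 9 rose and 3 fell, among them the endothelial SOX F genes Sox18 (0.84) and Sox17 (0.95) and also Sox13 (0.75), while Sox9 fell (-0.75). Of 21 ETS genes 12 rose and 5 fell. Elk3, an endothelial repressor also called Net, measured 424, 421, 412, 396 and 385 CPM in unstimulated libraries and 779.8, 571, 993, 763 and 896 CPM at 100 ng/mL (0.97 ± 0.11, adjusted p = 6.2e-06). Ets1 (0.52), Ets2 (0.72) and Erg (0.32) rose, and Fli1 (-0.42), Elf1 (-0.45) and Etv6 (-0.78) fell. The venous and lymphatic factor genes Nr2f2 (0.94) and Nr2f1 (1.01) rose. Prox1, the factor of lymphatic identity, did not pass (0.98 ± 0.40, adjusted p = 0.0599) and passed without library B (adjusted p = 0.0189) and by DESeq2 (adjusted p = 0.0343).

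Mef2c (ENSMUSG00000005583, chr13:83504034-83667080), a MADS-box factor of endothelium and muscle, measured 23.01, 28.5, 26.8, 15.99 and 22.8 CPM in unstimulated libraries and 136, 90.4, 125, 120.4 and 125 CPM at 100 ng/mL (2.35 ± 0.16, adjusted p = 4.66e-08). Hlx (chr1:184727140-184732619), a homeobox factor of sprouting endothelium, measured 16.7, 17.5, 15.1, 15.6 and 14.4 CPM and then 123.1, 86.4, 70.6, 124 and 91.7 CPM (2.64 ± 0.14, adjusted p = 1.3e-08). Neither gene had overlapping groups. Bcl6b, an endothelial repressor, rose from 116, 144, 122, 147 and 143 CPM to 426, 346, 221, 404 and 321 CPM (1.35 ± 0.16, adjusted p = 1.1e-05). The LIM-domain cofactor genes Lmo2 (1.19) and Ldb2 (0.91), the basic helix-loop-helix gene Tcf4 (0.83), the growth regulator gene Myc (1.06) and the repressor gene Zeb1 (0.70) rose too.

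Of 22 Kruppel-like and SP factors 8 rose and 4 fell. Klf2, the flow-induced factor of endothelium, measured 9.18, 7.40, 9.24, 18.1 and 21.03 CPM in unstimulated libraries and 46.3, 24.3, 78.4, 38.2 and 55.1 CPM at 100 ng/mL (1.90 ± 0.36, adjusted p = 0.0007). Library B, at 24.3 CPM, was the lowest of its group and just above unstimulated library E. Klf9 (1.36), Klf10 (0.86) and Klf6 (0.60) rose. Klf4 passed at 0.62 ± 0.20 (adjusted p = 0.0213) and did not without 100 ng/mL library C (0.40, adjusted p = 0.0585). Sp5, a Wnt-responsive factor, fell (-2.57, and -3.35 without library B).

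Forkhead and GATA genes were lower more often than higher. Of 26 forkhead genes 1 rose (3 without 100 ng/mL library B or C, 2 without unstimulated C) and 12 fell, and of 15 GATA factors and cofactors 3 rose and 9 fell. Foxc1 measured 22.6, 30.1, 28.2, 34.4 and 33.0 CPM in unstimulated libraries and 7.97, 11.8, 11.7, 7.77 and 10.7 CPM at 100 ng/mL (-1.57 ± 0.14, adjusted p = 6.8e-07), and Foxc2, the factor of lymphatic valves, fell by 0.90 ± 0.11. Foxp2 (-0.93) and Foxo1 (-0.34) fell. Gata6 measured 93.7, 103, 103, 106 and 69.1 CPM and then 23.8, 27.9, 30.2, 23.03 and 26.9 CPM (-1.85 ± 0.16, adjusted p = 5.31e-07), and Gata3 fell (-2.10). Library B was the highest of its group for Foxc1, just above library C, and lay among the other 4 for Gata6.

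Of 49 basic helix-loop-helix, Id and Hif genes 11 rose and 18 fell, or 22.4 and 36.7% against 21.3 and 21.5% of all genes tested. Ahrr, a repressor of the dioxin receptor, rose from 2.59, 2.96, 3.26, 2.50 and 4.42 CPM to 27.6, 17.7, 41.9, 35.8 and 35.1 CPM (3.33 ± 0.27, adjusted p = 2.68e-07). Mycl (chr4:122995652-123002485), a relative of Myc, fell from 24.8, 29.2, 23.5, 42.5 and 30.5 CPM to 2.09, 4.24, 1.08, 1.72 and 1.31 CPM (-3.86 ± 0.31, adjusted p = 2.64e-07), whereas Myc rose. Epas1, which encodes HIF-2 alpha, measured 237, 237, 264, 260.2 and 254 CPM and then 115, 119, 73.3, 76.5 and 82.4 CPM (-1.42 ± 0.13, adjusted p = 7.13e-07). Atoh8 fell (-2.17). Of 39 early response factor genes 17 were lower and 4 higher at 72 h, including Jun (-0.58), Junb (-0.83) and Egr1 (-0.82) beside the rises of Crem (1.40) and Cebpa (2.0). Srf (-0.57), its cofactor gene Mkl2 (-0.80), the YAP partner gene Tead1 (-0.69) and Vgll3 (-2.35, and -3.09 without library B) fell.

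Circadian clock genes fell in 12 of 19 cases (median -0.66) and rose in 1, or 0 without 100 ng/mL library E or unstimulated library B or D. Hlf (chr11:90336536-90390895), an output factor of the clock, measured 20.5, 15.3, 18.3, 21.2 and 9.43 CPM in unstimulated libraries and 0.405, 1.30, 1.54, 0.256 and 0.655 CPM at 100 ng/mL (-4.34 ± 0.39, adjusted p = 6.74e-07). Per2, a repressor of the core loop, measured 10.05, 11.3, 9.65, 11.4 and 9.92 CPM and then 3.99, 3.64, 5.54, 3.83 and 4.58 CPM (-1.28 ± 0.12, adjusted p = 1.07e-06). Library B was the lowest of its group for Per2, and the groups did not overlap for either gene. Per3 (-1.07), Cry2 (-0.55), Rora (-1.20), Nr1d2 (-0.53), Dbp (-1.02), Tef (-0.66) and Bhlhe41 (-1.87) fell. The activators of the loop did not pass, Arntl at 0.01 ± 0.05 (adjusted p = 0.94) and Clock at -0.09 ± 0.05 (adjusted p = 0.176), and Clock passed as lower in 4 other fits, among them that with library size alone (adjusted p = 0.0354). All libraries were made after 72 h, and the hour of collection is not stated in the labels.

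Interferon-stimulated genes fell in 39 of 61 cases and rose in 2 (median -0.48), and of 37 IRF, STAT and NF-kB factors 22 fell and 3 rose. Irf7 (-1.11), Irf1 (-0.88), Stat2 (-0.65), Relb (-0.91), Nfkb2 (-0.67) and Bcl3 (-1.76) fell, and Irf8 rose (0.94). The antiviral gene Rsad2, which encodes viperin, was 1 of the 2 that rose, from 84.3, 83.5, 63.3, 94.1 and 88.0 CPM in unstimulated libraries to 250.3, 185, 144, 233 and 148 CPM at 100 ng/mL (1.22 ± 0.20, adjusted p = 0.000172). Ifit3, another antiviral gene, fell by 1.95 ± 0.21, a value that is uncertain because its reads can match a near-identical copy. Of 25 immune GTPase genes tested 8 rose and 13 fell. The guanylate-binding gene Gbp5 fell (-2.84 ± 0.16), while Gimap4, of a family known from lymphocyte survival, rose from 35.8, 42.1, 41.0, 42.5 and 40.7 CPM to 251, 195, 142, 208 and 163 CPM (2.25 ± 0.14, adjusted p = 2.19e-08). The groups did not overlap for Gimap4 or Rsad2.

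Promoters of 4 of these genes are shown because they set 2 genes that fell beside 2 that rose. The sequences are from RefSeq (GRCm38.p6), the 250 bases before the start, read 5′ to 3′ on the strand of the gene. Capitals mark matches to the interferon response element GAAANNGAA, which reads TTCNNTTTC where it lies on the other strand. Gbp5 lies at chr3:142496684-142496933, plus strand, Ifit3 at chr19:34583279-34583528, plus strand, Rsad2 at chr12:26456453-26456702, minus strand and Gimap4 at chr6:48684328-48684577, plus strand.
Gbp5: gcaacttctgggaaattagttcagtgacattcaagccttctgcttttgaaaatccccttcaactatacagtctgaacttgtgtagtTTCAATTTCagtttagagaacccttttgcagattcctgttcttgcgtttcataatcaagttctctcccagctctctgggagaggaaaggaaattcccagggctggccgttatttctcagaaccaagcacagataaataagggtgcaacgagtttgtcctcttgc
Ifit3: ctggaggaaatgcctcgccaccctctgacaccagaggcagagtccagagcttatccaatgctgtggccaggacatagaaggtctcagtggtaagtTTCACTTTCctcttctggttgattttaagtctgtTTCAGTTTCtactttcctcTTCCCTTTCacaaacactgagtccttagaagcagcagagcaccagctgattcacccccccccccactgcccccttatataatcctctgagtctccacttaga
Rsad2: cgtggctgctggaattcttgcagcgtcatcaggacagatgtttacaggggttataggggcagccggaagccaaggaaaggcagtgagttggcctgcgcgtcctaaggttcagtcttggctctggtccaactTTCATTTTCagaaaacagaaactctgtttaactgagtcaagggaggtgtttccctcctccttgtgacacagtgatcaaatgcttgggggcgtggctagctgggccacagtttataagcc
Gimap4: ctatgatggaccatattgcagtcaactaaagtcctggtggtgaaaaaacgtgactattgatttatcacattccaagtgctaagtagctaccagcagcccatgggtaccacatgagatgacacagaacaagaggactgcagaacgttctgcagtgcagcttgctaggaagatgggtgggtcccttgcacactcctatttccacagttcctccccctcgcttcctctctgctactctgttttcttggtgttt

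The element was found in the promoters of Gbp5 (1 match), Ifit3 (3 matches) and Rsad2 (1 match) and not in that of Gimap4. Over windows from 250 bases before to 50 after the start, on both strands, it was found in 26 of 47 promoters of interferon-stimulated genes (55.3%), against 9.76% of all 27025 promoters. Of those 26 genes 15 fell and 2 rose, beside 39 that fell and 2 that rose over the whole list. Both genes of the list that rose, Rsad2 and Samd9l, thus held the element. Among immune GTPases 9 of 17 promoters held it (52.9%), all 9 of genes that fell, and none of the 8 Gimap promoters did. The Gimap genes were not the same set as the GTPase genes that rose. Gimap9 was called lower, and the guanylate-binding gene Gbp11 was called higher. A match describes the letters of a window and is not a measured binding site.

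Antigen presentation genes of the MHC fell in 34 of 41 cases and rose in 0 by edgeR (median -0.92), with 1 higher at an unadjusted p under 0.05 and by DESeq2 and 0 by limma-voom. By edgeR 1 was higher without library B. The peptide transporter gene Tap2 fell from 80.8, 79.3, 73.0, 77.6 and 73.7 CPM to 43.8, 47.5, 43.4, 51.1 and 43.2 CPM (-0.75 ± 0.06, adjusted p = 2.02e-07). Tap1 (-0.43), the class I gene H2-K1 (-1.17) and B2m (-0.43) fell with it. Reads of H2 genes can match more than 1 of them, so their separate values are uncertain. Complement and collectin genes fell in 26 of 34 cases (median -2.07) and chemokine ligands in 11 of 23. Neither list had a member higher by edgeR, DESeq2 or limma-voom or at an unadjusted p under 0.05, and 1 complement gene was higher without library B. Leukocyte and stromal marker sums fell beside these lists.

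The largest gain of all genes was Vim, the intermediate filament gene of mesenchymal and endothelial cells, at 2577, 2533, 2604, 2564 and 3073 CPM in unstimulated libraries and 6521, 5774, 4463, 6179.7 and 5355 CPM at 100 ng/mL (1.08 ± 0.11, adjusted p = 1.55e-06). Col18a1, the source of endostatin, rose from 1449, 1420.5, 1458, 1171 and 787 CPM to 3027, 2095, 3224, 3029 and 3441 CPM (1.24 ± 0.16, adjusted p = 2.33e-05). The second largest gain, the tenascin gene Tnc, measured 4218, 4415, 3808, 2906 and 2667 CPM and then 6214, 7181, 3049, 6832 and 4171 CPM, and the groups overlapped (0.61 ± 0.22, adjusted p = 0.0368). That call was lost in 12 of 21 other fits, with adjusted p between 0.0513 and 0.159, among them the fits without 100 ng/mL library A, B or D or unstimulated library C, D or E. Fabp4, a fatty acid-binding protein gene of capillary endothelium, rose (1.48), as did the cathepsin genes Ctsb (0.98), Ctsl (0.84) and Ctsd (0.63), while Ctsh (-1.30) and Lgmn (-0.91) fell. For Ctsd, library B lay inside the unstimulated range, at 1947 CPM. Of 47 lysosomal genes 8 rose and 15 fell, and 14 were higher without library B.

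The largest loss was Thbs1, which encodes the anti-angiogenic matrix protein thrombospondin-1, at 5088, 4360.3, 5646, 3583 and 2646 CPM in unstimulated libraries and 957, 1309, 829, 806 and 876 CPM at 100 ng/mL (-2.16 ± 0.25, adjusted p = 8.84e-06). Clu, the extracellular chaperone clusterin, fell from 2559, 1973, 2487, 1262 and 1696 CPM to 502, 871, 415, 533 and 429 CPM (-1.86 ± 0.25, adjusted p = 2.78e-05). Cyr61, a YAP target and matrix protein, fell from 1403, 1253, 1209, 1603 and 1591 CPM to 148, 365, 97.4, 102 and 76.6 CPM (-3.16 ± 0.35, adjusted p = 5.28e-06). Thbs1, Clu and Cyr61 had library B as the highest of the 100 ng/mL group, under every unstimulated library. Apoe (-2.90) and Bgn (-2.58) were also among the 10 largest losses. So was the basement membrane collagen gene Col4a1 (-0.33 ± 0.10, adjusted p = 0.019), a call lost without unstimulated library D (adjusted p = 0.052). Of 37 collagens 3 rose and 24 fell (median -1.42), and of 83 matrix proteases and inhibitors 14 rose and 51 fell. Stromal markers include several collagens, and their sum fell beside these lists.

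Genes of DNA synthesis rose in 11 of 44 cases, a share near the 21.3% of all genes tested. They fell in 0, against 21.5% of all genes. Of 41 genes of G2 and mitosis 0 passed by edgeR, DESeq2 or limma-voom, and 2 were lower at an unadjusted p under 0.05 and 2 by edgeR without library B. The S phase count was 6 without unstimulated library C, 7 without unstimulated A, B or D, and 19 without unstimulated E. The cyclin gene Ccnd2 rose from 158 ± 55.7 to 500.2 ± 116 CPM (1.67 ± 0.27). Mitochondrially encoded transcripts rose in 12 of 15 cases (median 0.48). Of the 85 respiratory chain genes of the nucleus 5 rose (3 without 100 ng/mL library A) and 19 fell. Those are 5.88 and 22.4%, and the share lower is near the 21.5% of all genes tested. Among NRF2 targets, which counter oxidants, Nqo1 (1.77) and Srxn1 (1.26) rose, with 10 of 32 higher and 12 lower.

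Library B of the 100 ng/mL group was compared with the other 4 gene by gene. For each 100 ng/mL library, genes were called without it, and its log2 difference from the unstimulated mean was set against the mean difference of the other 4 by a slope through the origin. The slopes were 1.07 for A, 0.637 for B, 0.978 for C, 1.12 for D and 1.03 for E. For B it was 0.713 over the higher genes and 0.595 over the lower ones, and 88.2% of 7815 genes had the same sign as in the other 4. Library C had the same sign in 89% of genes although its slope was near 1, and A, D and E had it in at least 99.5%. Among genes changed at least 2-fold in the other 4, library B moved by a median of 0.624 of their difference, in the same direction for 94.1%. The differences in B were thus smaller and of the same sign for most genes.

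The smaller response was uneven over the lists. The median ratio of the difference in B to that in the other 4 was 0.35 for Slit, Robo, netrin and Unc5 genes, 0.36 for Eph receptors and ephrins, 0.40 for YAP and TAZ targets, 0.44 for calcineurin and NFAT genes, 0.45 for sodium channels and 0.48 for cholesterol genes. It was 0.87 for ABC transporters, 0.90 for IRF, STAT and NF-kB factors, 0.98 for immune GTPases, 1.19 for MHC genes and 1.23 for clock genes, over 5 to 12 genes each. For the MHC list near-identical H2 genes share reads. In the same lists the other libraries lay between 0.68 and 1.49, with library C at 0.77 for MHC and 0.68 for clock genes. These ratios describe single libraries and carry no test.

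**Figure D5:**
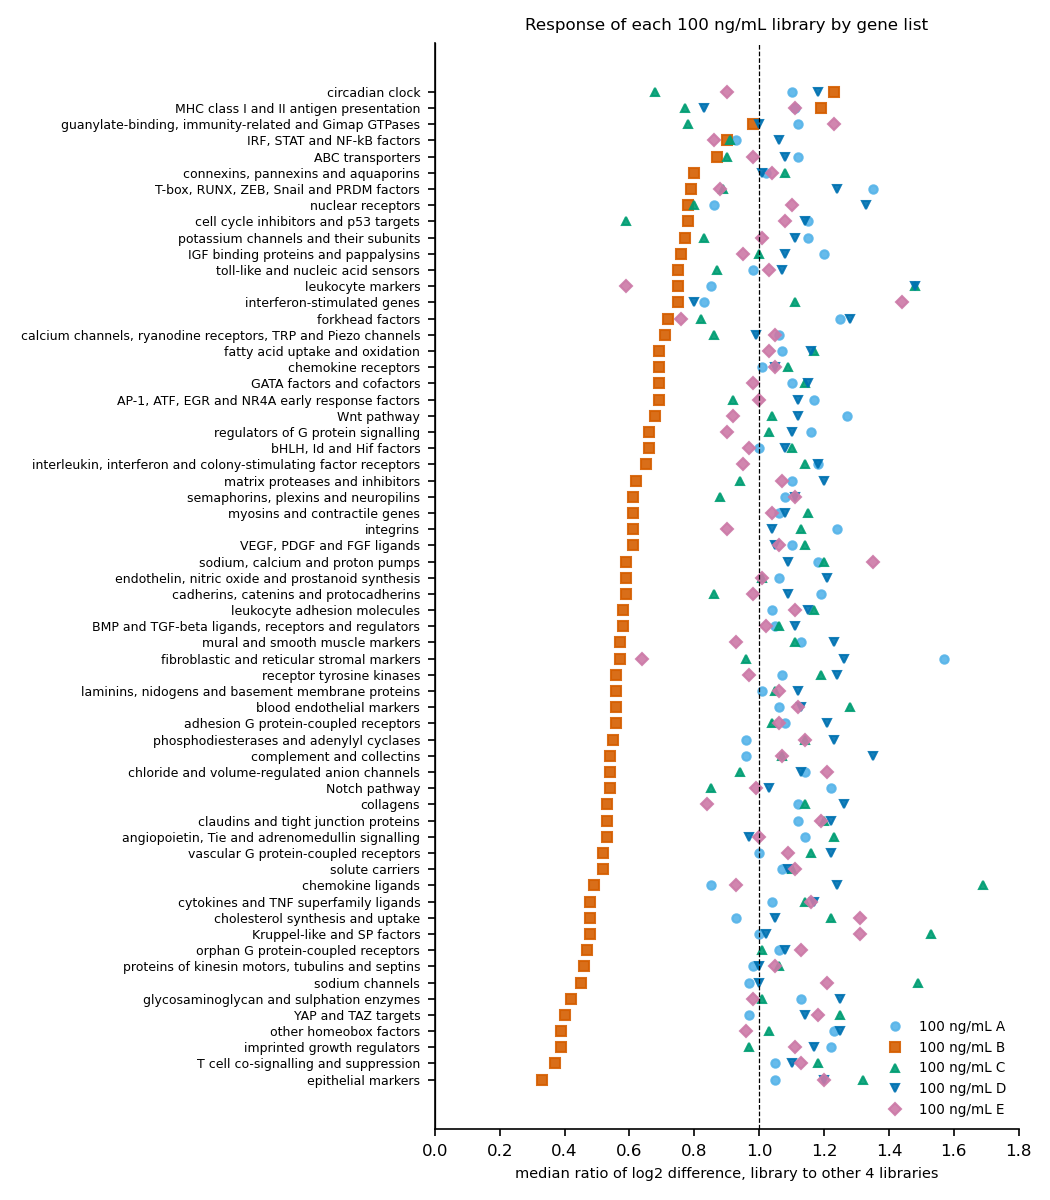
Median ratio, over the responding members of each list, of the log2 difference of 1 library from the unstimulated mean to the mean difference of the other 4 libraries at 100 ng/mL, with 1 symbol per library and a dashed line at 1. Library B (orange squares) is the lowest of the 5 in most lists, from 0.33 upwards, and reaches 0.98 for immune GTPases, 1.19 for MHC and 1.23 for clock genes.

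Of 1728 called members of the lists, 348 (20.1%) lay inside the unstimulated range in library B, against 182 in library C and 64 to 113 in A, D and E. The activin subunit gene Inhba measured 19.7, 13.2, 23.7, 14.8 and 31.1 CPM in unstimulated libraries and 4.42, 19.4, 1.64, 2.52 and 2.42 CPM at 100 ng/mL (-1.76 ± 0.54, adjusted p = 0.0166, and -2.89 without library B). Cd44, the hyaluronan receptor gene, measured 69.9, 70.9, 97.3, 70.7 and 131 CPM and then 23.6, 79.2, 12.5, 22.1 and 16.3 CPM (-1.52 ± 0.41, adjusted p = 0.00783, and -2.24 without library B). The tight junction gene Cldn5 measured 295, 223, 255, 158 and 87.5 CPM and then 702, 243, 1056, 768 and 1018 CPM (1.90 ± 0.38, adjusted p = 0.000918). In each of the 3, library B lay within the unstimulated values and the other 4 beyond them. Ltbp4, which binds latent TGF-beta, showed the same pattern, with a log2 difference of 0.06 in B against 2.20 in the other 4. So did other genes named above as rises. Among them were Nqo1 (0.10 against 1.87), Aqp1 (0.08 against 1.82), Notch2 (0.18 against 1.23), Abca1 (0.06 against 0.93) and Ctsd (-0.21 against 0.78).

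Library B also held the most RNA of stromal and mural markers among the 100 ng/mL libraries, at 572 and 479.7 CPM, both under the lowest unstimulated library, and the least LEC marker RNA, at 7375 CPM, above the highest unstimulated one. At 100 ng/mL Mcam reached 377 CPM and the next highest mural marker, Tagln, 61.4 CPM. The mural sum of library B thus rests largely on Mcam and does not describe mural markers in general. On the first principal component it scored 38.8, against 69.8 to 78.5 for the other 4 and -41.8 to -31.1 for the unstimulated libraries. On the second it scored -45.1, near unstimulated E at -41.1 and 10 ng/mL D at -28.2. Over genes, its deviation from its group mean correlated with that of unstimulated E (0.559) and 10 ng/mL D (0.428), and these correlations were between -0.334 and -0.026 for the other 8 libraries of those groups. They describe genes, which are not independent. What sets these libraries apart was not tested.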

How the data were processed

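RNA of the 15 libraries was poly-A selected and sequenced with a stranded kit, per the labels. The authors deposited a table of 45706 genes holding, per the file headers, an estimated count and the RPKM of each library. A second table repeats the counts of 6719 genes and was not used. The submitters' processing notes name FastQC, Bowtie2, limma, GRCm38 and mm10. The read counter, its strand setting and how it treated reads matching several genes are not given in the sources used.

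The deposited estimated counts were rounded, genes kept by filterByExpr, scaled by TMM and fitted with group as the only term in edgeR 4.0.16 (R 4.3.3, robust quasi-likelihood fit, Benjamini-Hochberg, threshold 0.05). CPM and log2 fold changes come from these counts. RPKM deposited by the authors serves to compare levels between genes, and limma 3.58.1 was run on it as an alternative. Precision rests on 5 libraries per group. Libraries within a group all differed by more than counting noise (smallest chi-square per degree of freedom 8.64).

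The members and lists were chosen with earlier results of these data known. Values in every library could be given for called list members with the smallest p (up to 3 per list and direction, mean log2 CPM at least 0), for the 10 largest gains and losses in CPM, and for genes whose library B lay nearest the unstimulated range. They are given for some of these, selected with the values known. Other list members are named with their fold change. Some members are not reported here. Libraries of the same letter did not deviate together (correlations -0.342 to 0.132). Of 275 named genes checked, 87 share exon bases with another gene (GENCODE M21), often a gene with few or no counts. Values are uncertain where the other gene is expressed. Examples are Bmp6, Cyp51, Dbp, Elf1, Elk3, Fgfr2, Irf7, Junb, Kcnq1, Nr2f1, Nrg1, Pdgfa, Ptger4, Tap1 and Col4a1. Adgra2, Ctsb, Pde2a, Piezo1 and Stat3 are further examples, and others are not listed. The model was tested on simulated data. Alternatives were DESeq2 1.42.0, limma-voom, other scalings, filters, thresholds and fits without libraries.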

Additional observations from a re-analysis of the deposited data

Results flagged for a closer look

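In 145 groups of 5 values, the highest or lowest library was examined for a gap to its nearest neighbour of more than 0.71 of the whole range, which chance gives in about 1 group in 20. Such a gap was found in 20 groups, and in 15 of them the library apart was 100 ng/mL B. The groups share libraries and so are not independent, and Inhba and Cd44 were chosen because of where library B lay, so the count cannot be read against the chance rate. The cause was not tested.

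Library B was the highest of the 100 ng/mL group, on the side of the unstimulated libraries, for Ddr1 (14.4 CPM), Egfr (9.32 CPM), Ptger4 (15.03 CPM), Sema3e (74.6 CPM), Slit2 (65.7 CPM), Adm (399 CPM), Msmo1 (47.6 CPM), Clu (871 CPM), Cyr61 (365 CPM), Inhba (19.4 CPM) and Cd44 (79.2 CPM). It was the lowest, again toward the unstimulated libraries, for Adgrg3 (214 CPM), Clca2 (76.3 CPM) and Slc2a13 (11.3 CPM), and in its score on the first principal component (38.8).

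Unstimulated library E was the lowest of its group for Plxnd1 (619 CPM), Edn1 (745 CPM) and Pde10a (14.2 CPM) and the highest for Vim (3073 CPM). Unstimulated library A was the lowest of its group for Gimap4 (35.8 CPM).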

How the results depend on the processing

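With 21 alternative fits, the called genes numbered 2423 to 4083 higher and 2538 to 4274 lower. Only the stricter filter of 10 CPM in 5 libraries, which tested 10373 genes, moved a total by more than 1.5 times, to 2423 higher. Leaving out 1 library gave 3301 to 3860 higher and 3430 to 4003 lower. The fit with the letter as a replicate block gave 3480 higher and 3569 lower and changed no list count by more than 1.5 times. No unstimulated library correlated best with the 100 ng/mL library of its own letter. The slope of library B was 0.639 over all tested genes and 0.635 with library size alone.

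Of 267 named genes that were called, 262 stayed called in every alternative that tested them and none changed sign there. Many named genes were chosen for a small p or with results known, and the fits share most libraries. That count therefore does not describe called genes in general. All 21 fits tested 242 of the 267, and 18 to 20 fits tested the rest. Tnc, Pecam1, Klf4, Nfatc1 and Col4a1 lost the call in at least 1, with Pecam1 at adjusted p 0.0502 to 0.11 in 12 fits. Of 130 list counts of at least 5 genes, the stricter filter moved 54 by more than 1.5 times and the fits on RPKM 51 and 53, where fewer genes were tested. Library size alone moved 5. Depth of at least 27784906 counts leaves genes under about 1 CPM the least precise, and 5 libraries per group limit the spread that could be estimated.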
